A study of Mus musculus with 6 samples.

Results

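Cadherins, claudins and connexins were taken as all probe sets of the array whose gene symbol was Cdh, Cldn, Gja, Gjb or Gjc followed by a number. The rule gave 89 of 45037 probe sets and 52 of 18193 genes, with 21 cadherin, 20 claudin and 11 connexin genes. They were measured in whole lung RNA of adult BALB/c mice on 6 Affymetrix mouse expression arrays. IL4R KO + SMP8-IL4R mice (called transgenic below) were IL4R -/- and carried, as +/-, a construct that expresses the receptor from the smooth muscle promoter SMP8. IL4R KO mice had the same deletion without the construct, and WT mice had neither. All 3 groups received 2 to 3 µg of IL13, a type 2 cytokine, into the trachea each day for 7 days, and lungs were collected 24 hours after the last dose. Each group had 2 arrays, and each array held RNA pooled from 4 mice. No lungs without IL13 were analysed here, so every comparison is between genotypes under IL13.

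These genes encode the membrane proteins that join cells. Classical cadherins bind cadherins of the neighbouring cell in the presence of calcium and are held to the actin skeleton by catenins. Claudins form the strands of the tight junction and set which ions pass between epithelial or endothelial cells. Connexins assemble into gap junction channels through which ions and small molecules pass from cell to cell. IL13 signals through a receptor that contains the product of Il4ra and activates the transcription factor STAT6.

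Il4ra was read by 3 probe sets. The brightest gave log2 values of 9.98 and 9.84 in transgenic lungs, 9.35 and 9.55 in IL4R KO lungs and 9.64 and 9.81 in WT lungs. None of the 3 passed in any comparison in the limma fit of all probe sets, where the lowest adjusted p was 0.098, and the sources used here do not say where they lie relative to the deletion. The lung markers Sftpc, Scgb1a1 and Ager lay between 14.29 and 14.76 in all 6 arrays. Array medians lay between 7.08 and 7.11. The SD over genes of the difference between a group's pools was 0.169 in transgenic, 0.340 in IL4R KO and 0.221 in WT lungs.

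Of the 4 genes that passed in a comparison, 3 had a promoter in the RefSeq table (GRCm38.p6). The 250 bases before each start are given in the gene's 5′ to 3′ direction, to show what lies upstream of the claudins and the connexin that differed between genotypes. The promoter of Gjb2, the neighbour of Gjb6, is given for comparison. Capitals mark GC boxes, GGGCGG on either strand. The window of Cldn1 is chr16:26371840-26372089 (minus strand) and that of Cldn22 is chr8:47824232-47824481 (plus strand). The window of Gjb6 is chr14:57133612-57133861 and that of Gjb2 is chr14:57104703-57104952, both on the minus strand.
Cldn1: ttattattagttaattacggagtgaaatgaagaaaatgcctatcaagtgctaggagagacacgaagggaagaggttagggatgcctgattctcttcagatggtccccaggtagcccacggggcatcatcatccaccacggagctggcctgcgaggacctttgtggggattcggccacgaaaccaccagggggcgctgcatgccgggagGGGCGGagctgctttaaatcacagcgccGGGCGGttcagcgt
Cldn22: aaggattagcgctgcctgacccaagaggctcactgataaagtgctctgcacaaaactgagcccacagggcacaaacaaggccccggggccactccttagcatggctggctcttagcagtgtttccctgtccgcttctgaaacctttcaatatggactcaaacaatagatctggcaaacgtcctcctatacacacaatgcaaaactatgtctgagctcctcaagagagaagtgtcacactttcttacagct
Gjb6: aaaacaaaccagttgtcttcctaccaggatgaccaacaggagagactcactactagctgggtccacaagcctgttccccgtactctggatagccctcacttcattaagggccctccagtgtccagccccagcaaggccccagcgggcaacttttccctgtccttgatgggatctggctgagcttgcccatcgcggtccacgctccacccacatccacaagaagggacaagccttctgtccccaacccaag
Gjb2: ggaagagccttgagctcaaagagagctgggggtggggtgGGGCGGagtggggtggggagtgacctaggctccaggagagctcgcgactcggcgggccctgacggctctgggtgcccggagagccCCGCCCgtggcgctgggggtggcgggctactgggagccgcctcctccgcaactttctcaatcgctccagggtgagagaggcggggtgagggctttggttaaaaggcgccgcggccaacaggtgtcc

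The Cldn1 and Gjb2 windows each held 2 GC boxes, and those of Cldn22 and Gjb6 held 0. The GC content was 55.6% in Cldn1, 49.2% in Cldn22, 56.8% in Gjb6 and 69.2% in Gjb2, beside a median of 52.4% over all 32851 promoter windows of the table. CG dinucleotides numbered 14, 4, 5 and 18 in that order, beside a median of 6. Both spacings of the STAT motif were searched, TTCNNNNGAA and TTCNNNGAA, each of which reads the same on both strands. Neither was present in the 4 windows printed above, nor was TATAAA on either strand. Over all windows, TTCNNNNGAA was present in 5.85%, TTCNNNGAA in 7.02%, a GC box in 32.7% and TATAAA in 12.4%. The table held 51 windows for 37 of the 52 genes. TTCNNNNGAA was present in 3 of them, from Cdh7, Cldn12 and Cldn14, TTCNNNGAA in 4, from Cldn7, Cldn12 and Cldn14, and a GC box in 20. No reading of which factor binds was made from these letters.

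Levels are log2 RMA values, in which a step of 1 is a doubling. Over all probe sets and arrays the lower quartile was 5.30, the median 7.10 and the upper quartile 8.98. By the mean of the brightest probe set, 12 of the 52 genes lay below the lower quartile, 14 between it and the median, 14 between the median and the upper quartile and 12 above. A gene was tested if its brightest probe set exceeded the median in at least 2 arrays, which kept 26 of the 52 (7 cadherins, 12 claudins and 7 connexins). Cldn1 met this filter through the WT arrays alone and Cldn4, chosen for mention for that reason, through the IL4R KO arrays alone. Gjb6 met it through transgenic and IL4R KO arrays, with both WT arrays below the median. Cldn22 met it through IL4R KO and WT arrays, with both transgenic arrays below the median. Counts over all 52 genes are therefore given beside those over the 26. The threshold was an adjusted p of 0.05 in limma, with the adjustment made over all 11861 genes tested. In whole lung, fewer cells of a type and less RNA per cell cannot be told apart.

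Cldn1 and Cldn22 were lower in IL4R KO lungs than in WT lungs, and Gjb6 and Cdh13 were higher, so that 4 of 26 members passed. Among all genes tested, 4.7% passed. By direction, 2 members were higher against a background of 1.92%, and 2 were lower against 2.77%. Without the filter, 5 of 52 passed against 2.8%, the fifth being Cdh19, and in the fit of all probe sets 5 of 89 passed against 1.58%. Transgenic lungs set against the same WT arrays had 3 members of 26 passing, against 2.84% of all genes. Cldn1 and Cldn22 were lower there, where the background was 2.15%, and Gjb6 was higher, where it was 0.691%. Without the filter, 2 of 52 passed against 1.83%, the claudins alone, and 3 of 89 probe sets against 1.04%. Between transgenic and IL4R KO lungs, 0 of 26 members passed in limma, against 0.101% of all genes (0.0759% higher and 0.0253% lower). Before adjustment, 7 of the 26 had a limma p under 0.05, 1 higher and 6 lower. The share of all genes at that cut is not given here, so these 7 have no background. The same comparison gave 0 of 52 without the filter, against 0.0275%, and 0 of 89 probe sets, against 0.0155%.

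Cldn1, a claudin of epithelial barriers, had the largest difference from WT among the members tested in IL4R KO lungs. Its brightest probe set read 6.89 and 6.89 in transgenic lungs, 6.87 and 7.00 in IL4R KO lungs and 7.92 and 7.97 in WT lungs. Both WT pools were high, and the 4 receptor-deleted pools formed a narrow low group in which transgenic and IL4R KO overlapped. The difference was -1.01 ± 0.068 for IL4R KO minus WT (SE, n = 2 pools each, limma adjusted p = 0.0016). It was -1.05 ± 0.068 for transgenic minus WT (limma adjusted p = 0.0017). Transgenic minus IL4R KO was -0.04, with a 95% interval from -0.21 to 0.13.

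The second probe set of Cldn1 read 5.84 and 5.98 in transgenic lungs, 6.05 and 6.22 in IL4R KO lungs and 6.61 and 6.90 in WT lungs. WT was again the high group. In the fit of all probe sets, transgenic minus WT was -0.85 (limma adjusted p = 0.033) and IL4R KO minus WT -0.62 (limma adjusted p = 0.071). The other 2 Cldn1 probe sets lay between 3.03 and 3.34 in all 6 arrays, well under the lower quartile, and none of their differences passed. Cldn16, the neighbour of Cldn1 on the chromosome, stayed at 5.28 to 5.59 and was not tested.

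Cldn22, another claudin, was ordered by genotype in all 6 arrays. It read 7.04 and 7.01 in transgenic lungs, 7.36 and 7.36 in IL4R KO lungs and 8.08 and 7.87 in WT lungs. The groups did not overlap in any pairing, with transgenic lowest and WT highest. It was lower by limma in IL4R KO than in WT lungs (difference -0.62 ± 0.084, SE, adjusted p = 0.018). It was also lower in transgenic than in WT lungs (-0.95 ± 0.084, limma adjusted p = 0.0050). Transgenic minus IL4R KO was -0.34, with a 95% interval from -0.54 to -0.13, and did not pass (limma adjusted p = 0.27). The IL4R KO call was lost without WT pool 1 (-0.51) and in a fit of IL4R KO and WT arrays alone (limma adjusted p = 0.053). Leaving out either transgenic pool repeats that fit for this comparison, because a pool alone in its group adds no spread. The transgenic call was lost without transgenic pool 2 (-0.94, limma adjusted p = 0.052, in a range of 0.0034 to 0.052 over 14 alternatives).

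**Figure D1:**
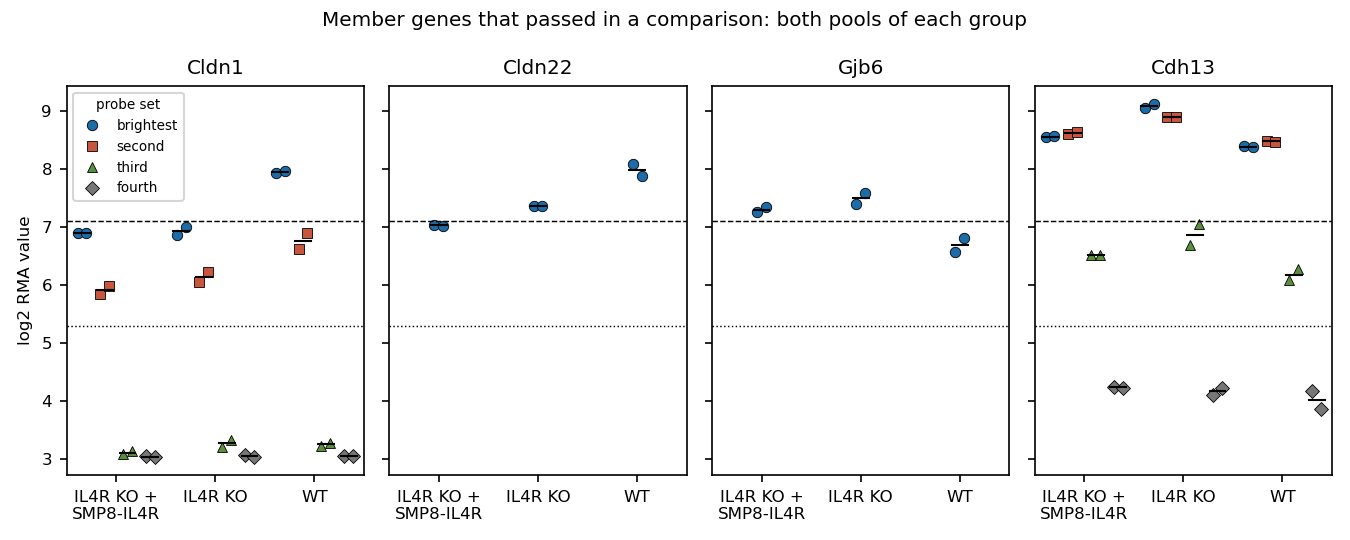
Log2 RMA values (vertical axis) of the 4 genes that passed in a comparison, by genotype, with a point for each pool, a bar for the mean and a symbol for each probe set. The dashed line is the median of all values (7.10) and the dotted line the lower quartile (5.30). Cldn1 and Cldn22 are highest in WT, Gjb6 is lowest in WT, and Cdh13 is highest in IL4R KO.

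Goblet cell markers moved beside these claudins. All 6 listed markers, among them Clca1 and Muc5ac, were lower in IL4R KO and in transgenic lungs than in WT lungs. Their summed linear level was 1826 to 1850 in transgenic, 1854 to 2046 in IL4R KO and 31621 to 32166 in WT lungs. None of the 6 had a mean over all arrays below the lower quartile. Clca1, however, lay below it in every transgenic and IL4R KO pool (3.91 to 5.27). Clca1, Muc5ac and Spdef met the filter through the WT arrays alone. The sums of the 7 macrophage markers were also highest in WT, at 7822 to 10423 in transgenic, 8208 to 8260 in IL4R KO and 27027 to 28121 in WT lungs, with transgenic and IL4R KO overlapping and none below the lower quartile. Of 6 tested, 3 (Chil3, Mrc1 and Itgax) were lower than WT in both other groups. Marco, not tested because of the filter, was higher than WT in both without it. Its difference was 1.02 for transgenic minus WT (limma adjusted p = 0.0031) and 0.50 for IL4R KO minus WT (limma adjusted p = 0.033). Their part in the Cldn1 and Cldn22 differences was not tested.

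The other 10 tested claudins passed in no comparison. The brightest were Cldn5, the claudin of endothelial tight junctions, and Cldn18, whose lung form belongs to the alveolar epithelium. Cldn5 read 12.59 and 12.69 in transgenic lungs, 12.93 and 12.79 in IL4R KO lungs and 12.93 and 12.85 in WT lungs. The transgenic pools were the low ones. The difference was -0.22 from IL4R KO (limma adjusted p = 0.34) and -0.26 from WT (limma adjusted p = 0.17). Cldn18 lay between 12.24 and 12.43 in all arrays, and its 3 differences ran from -0.03 to 0.12.

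Cldn3, Cldn4 and Cldn7 are claudins of airway and alveolar epithelium. Cldn3 read 11.79 and 11.84 in transgenic lungs, 12.02 and 12.01 in IL4R KO lungs and 11.77 and 11.87 in WT lungs. IL4R KO was the high group without overlap, but transgenic minus IL4R KO (-0.20, limma adjusted p = 0.33) and IL4R KO minus WT (0.19, limma adjusted p = 0.16) did not pass. Its 4 probe sets gave differences of -0.23 to -0.18 for transgenic minus IL4R KO and 0.16 to 0.19 for IL4R KO minus WT. Some of them carry the ending x_at, which marks probes that can also match other transcripts. Cldn4, beside Cldn3 on the chromosome, differed by -0.25 and 0.29 in these comparisons. Cldn7 lay between 10.89 and 11.17, Cldn10 between 9.93 and 10.44 and Cldn12 between 9.81 and 10.00, with differences of at most 0.26 in size.

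Cldn23 read 7.05 and 6.96 in transgenic lungs, 7.40 and 7.85 in IL4R KO lungs and 7.24 and 7.29 in WT lungs. The transgenic pools were lowest and the IL4R KO pools highest and far apart. Transgenic minus IL4R KO was -0.62 ± 0.148 (SE, limma adjusted p = 0.26). Without IL4R KO pool 1 it was -0.85 and passed (limma adjusted p = 0.043, in a range of 0.043 to 0.89 over 14 alternatives).

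Cldn8 and Cldn15 were lowest in WT. Cldn8, a claudin that lowers cation passage in kidney tubules, read 7.97 and 8.06 in transgenic lungs, 7.82 and 8.32 in IL4R KO lungs and 7.41 and 7.54 in WT lungs. The WT pools did not overlap with the others. IL4R KO minus WT was 0.59 (limma adjusted p = 0.11) and transgenic minus WT 0.53 (limma adjusted p = 0.18). Without IL4R KO pool 1, IL4R KO minus WT was 0.84 and passed (limma adjusted p = 0.0086, in a range of 0.0086 to 0.44 over 15 alternatives). Transgenic minus WT passed in a fit of transgenic and WT arrays alone (limma adjusted p = 0.016, in a range of 0.016 to 0.58 over 14 alternatives). Leaving out either IL4R KO pool repeats that fit for this comparison.

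Cldn15, a claudin that passes cations in the gut, read 7.87 and 8.02 in transgenic lungs, 8.06 and 8.32 in IL4R KO lungs and 7.67 and 7.74 in WT lungs. The 3 groups did not overlap, with IL4R KO highest. IL4R KO minus WT was 0.48 ± 0.107 (SE, limma adjusted p = 0.070). It passed without IL4R KO pool 1 (0.61, limma adjusted p = 0.020, in a range of 0.020 to 0.37 over 15 alternatives). The 6 mesothelial markers had summed linear levels of 4767 to 5153 in transgenic, 5435 to 6134 in IL4R KO and 4113 to 4130 in WT lungs, the same order of groups. Of the 6, Msln and Upk3b were higher in IL4R KO than in WT lungs, while Upk1b was lower in transgenic than in WT lungs (-0.46, limma adjusted p = 0.036). None had a mean below the lower quartile, and their part in the Cldn15 values was not tested.

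Among connexins, Gjb6, which forms gap junctions in the skin and the inner ear, was the member that passed. It read 7.26 and 7.34 in transgenic lungs, 7.40 and 7.58 in IL4R KO lungs and 6.57 and 6.81 in WT lungs. Both WT pools were low, and the groups did not overlap. Gjb6 was higher in IL4R KO than in WT lungs by 0.80 ± 0.106 (SE, limma adjusted p = 0.016). It was higher in transgenic than in WT lungs by 0.61 ± 0.106 (limma adjusted p = 0.046). The IL4R KO call was lost without WT pool 1 (0.68, limma adjusted p = 0.13) or WT pool 2 (0.92, limma adjusted p = 0.056), in a range of 0.0087 to 0.13 over 15 alternatives. The transgenic call was lost without the filter on dim genes (limma adjusted p = 0.058), in the fit of all probe sets (0.069), with arrays centred on their medians (0.0502) and with any 1 transgenic or WT pool left out (0.49 to 0.73, limma adjusted p = 0.12 to 0.28), in a range of 0.023 to 0.28 over 14 alternatives. Transgenic minus IL4R KO was -0.19, with a 95% interval from -0.45 to 0.07. Gjb6 had 1 probe set, so no second probe set could be set beside it. Among markers of basal and squamous epithelium, which can express Gjb6, 2 of 6 were tested. Sbsn was higher in IL4R KO and in transgenic than in WT lungs, whereas Krt5 was highest in WT and did not pass (-0.27 for IL4R KO minus WT and -0.43 for transgenic minus WT). The summed linear level of the 6 was 555 to 584 in transgenic, 617 to 619 in IL4R KO and 542 to 569 in WT lungs, 1 had a mean below the lower quartile, and their part was not tested.

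Gjb2, a partner of Gjb6 in mixed channels and its neighbour on the chromosome, did not show the same order. It read 7.28 and 7.30 in transgenic lungs, 7.64 and 7.48 in IL4R KO lungs and 7.60 and 7.94 in WT lungs. The transgenic pools were low, and the other groups overlapped. Transgenic minus WT was -0.48 (limma adjusted p = 0.13), transgenic minus IL4R KO -0.26 (limma adjusted p = 0.45) and IL4R KO minus WT -0.22 (limma adjusted p = 0.37).

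Gjb1, the main connexin of hepatocytes, had the widest spread between pools among the tested members. Its brighter probe set read 7.09 and 7.13 in transgenic lungs, 8.25 and 7.48 in IL4R KO lungs and 7.87 and 8.53 in WT lungs. The transgenic pools lay below all others, and IL4R KO and WT overlapped. The dimmer probe set read 5.44 and 5.10 in transgenic lungs, 6.74 and 5.97 in IL4R KO lungs and 5.91 and 7.13 in WT lungs. For the brighter probe set, transgenic minus WT was -1.09 ± 0.301 (SE, limma adjusted p = 0.15) and transgenic minus IL4R KO -0.75 ± 0.301 (SE, limma adjusted p = 0.40).

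IL4R KO pool 1 and WT pool 2, the high pools of Gjb1 in their groups, were also the arrays with liver transcripts. Alb, albumin, read 5.68 and 5.93 in transgenic lungs, 12.26 and 5.91 in IL4R KO lungs and 5.90 and 11.81 in WT lungs. The summed linear level of the 7 hepatocyte markers measured, of 8 listed, was 1799 to 1830 in transgenic, 2172 to 13656 in IL4R KO and 1267 to 8301 in WT lungs, and none had a mean below the lower quartile. Without both arrays, transgenic minus WT in Gjb1 was -0.76. That fit had 1 WT pool and 1 IL4R KO pool, so the gene's own spread came from the transgenic pools alone, the closest pair. Over 14 alternatives, transgenic minus WT in Gjb1 ran from -1.42 to -0.76, and 4 of the 14 passed. In a fit of transgenic and WT arrays alone, that difference was -1.09 and passed (limma adjusted p = 0.046). Leaving out either IL4R KO pool repeats that fit for this comparison. The part of the liver transcripts in the Gjb1 values of the full set was not tested.

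**Figure D2:**
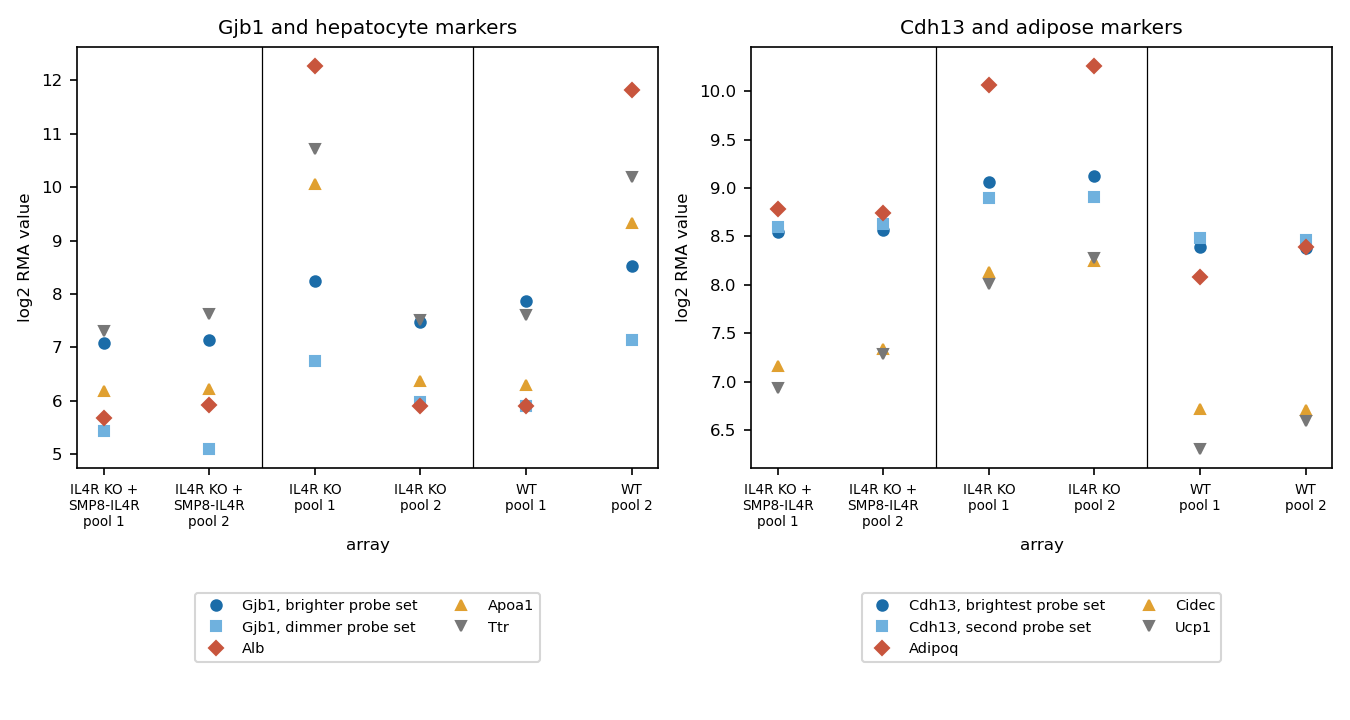
Log2 RMA values (vertical axis) in each of the 6 arrays (horizontal axis), with Gjb1 and hepatocyte markers in the left panel and Cdh13 and adipose markers in the right. Alb is high in the left IL4R KO array (12.26) and the right WT array (11.81), and Gjb1 is highest in those arrays, while Cdh13 and the adipose markers are highest in both IL4R KO pools.

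The arterial connexins passed in no comparison, with Gja4 above the upper quartile and Gja5 between the median and the upper quartile. Gja4, a connexin of arterial endothelium, read 11.12 and 11.04 in transgenic lungs, 10.72 and 10.90 in IL4R KO lungs and 10.74 and 10.73 in WT lungs. The transgenic pools were highest without overlap. Transgenic minus WT was 0.35 ± 0.081 (SE, limma adjusted p = 0.098) and transgenic minus IL4R KO 0.28 ± 0.081 (SE, limma adjusted p = 0.30). In a fit of transgenic and WT arrays alone, transgenic minus WT passed (limma adjusted p = 0.026, in a range of 0.026 to 0.45 over 15 alternatives). Leaving out either IL4R KO pool repeats that fit for this comparison and is no further support. Gja5, the other connexin of arterial endothelium, read 7.88 and 7.59 in transgenic lungs, 7.29 and 7.76 in IL4R KO lungs and 7.29 and 7.33 in WT lungs, and transgenic minus WT was 0.42 (limma adjusted p = 0.28). Endothelial markers had summed linear levels of 24158 to 24198 in transgenic, 22374 to 26570 in IL4R KO and 25753 to 26567 in WT lungs. Of these 7 markers, 0 had a mean below the lower quartile. Vwf was lower than WT in IL4R KO lungs (-0.70, limma adjusted p = 0.013) and in transgenic lungs (-0.63, limma adjusted p = 0.022). The other endothelial markers passed in no comparison, and the part of endothelial cells was not tested.

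Gja1, the most widely expressed connexin, and Gjc1, found in smooth muscle and the heart, did not pass either. Gja1 read 11.78 and 11.75 in transgenic lungs, 11.53 and 11.77 in IL4R KO lungs and 11.94 and 11.90 in WT lungs. WT was highest, and transgenic and IL4R KO overlapped. IL4R KO minus WT was -0.27 (limma adjusted p = 0.17). It passed without IL4R KO pool 2 (-0.39, limma adjusted p = 0.023, in a range of 0.023 to 0.54 over 16 alternatives). Its 6 probe sets gave differences of -0.27 to -0.08 in that comparison, all below 0. Some of them, including the brightest, carry the ending x_at, as for Cldn3. Gjc1 lay between 9.64 and 9.97, and its transgenic minus WT difference was 0.23 (limma adjusted p = 0.23). Smooth muscle markers, in contrast, included 4 of 7 higher in transgenic than in IL4R KO lungs, with summed linear levels of 22237 to 23076 in transgenic, 13732 to 14236 in IL4R KO and 19302 to 19696 in WT lungs.

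Cdh13, a cadherin without a membrane-spanning segment that binds the fat hormone adiponectin, was the cadherin that passed. Its brightest probe set read 8.54 and 8.57 in transgenic lungs, 9.06 and 9.12 in IL4R KO lungs and 8.39 and 8.38 in WT lungs. The IL4R KO pools stood above all others, and no groups overlapped. It was higher in IL4R KO than in WT lungs by 0.71 ± 0.059 (SE, limma adjusted p = 0.0032). That call was lost without WT pool 1 or WT pool 2 (0.71 and 0.70, limma adjusted p = 0.056 for both, in a range of 0.0022 to 0.056 over 15 alternatives). Transgenic minus IL4R KO was -0.53 ± 0.059 with a 95% interval from -0.68 to -0.39, and did not pass after adjustment over all genes (limma adjusted p = 0.084). Without IL4R KO pool 2 it was -0.50 and passed (limma adjusted p = 0.035, in a range of 0.035 to 0.71 over 14 alternatives). Transgenic minus WT was 0.17 (limma adjusted p = 0.22).

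The second probe set of Cdh13 read 8.60 and 8.63 in transgenic lungs, 8.89 and 8.90 in IL4R KO lungs and 8.49 and 8.47 in WT lungs. The third read 6.52 and 6.52 in transgenic lungs, 6.68 and 7.05 in IL4R KO lungs and 6.08 and 6.27 in WT lungs. IL4R KO was the high group in both. IL4R KO minus WT passed for the second (0.42, limma adjusted p = 0.045, fit of all probe sets) but not for the third (0.69, limma adjusted p = 0.069). The fourth stayed between 3.86 and 4.24, under the lower quartile, with transgenic highest, IL4R KO and WT overlapping and no difference passing.

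Markers of adipose tissue moved beside Cdh13. Of 6 listed, 4 had a probe set and 3 were tested, all 3 higher in IL4R KO than in WT lungs and 2 lower in transgenic than in IL4R KO lungs. Adipoq, which encodes adiponectin, read 8.79 and 8.75 in transgenic lungs, 10.06 and 10.26 in IL4R KO lungs and 8.08 and 8.39 in WT lungs. The summed linear level was 734 to 773 in transgenic, 1639 to 1864 in IL4R KO and 480 to 562 in WT lungs, and Lep was the 1 marker below the lower quartile. Cardiac muscle markers had the same order, with sums of 17872 to 19454 in transgenic, 22292 to 26481 in IL4R KO and 14656 to 15576 in WT lungs, and 6 of 8 were higher in IL4R KO than in WT lungs, while 1 was higher and 1 lower in transgenic than in WT lungs. The part of either tissue in the Cdh13 difference was not tested.

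Cdh1 and Cdh5, the classical cadherins of epithelium and endothelium, were among the brightest members and varied little. Cdh1, E-cadherin, read 12.20 and 12.22 in transgenic lungs, 12.21 and 12.22 in IL4R KO lungs and 12.30 and 12.30 in WT lungs. WT was the high group, and the differences of IL4R KO and of transgenic from WT, both -0.09, did not pass (limma adjusted p = 0.40 and 0.46 in that order). Cdh5, VE-cadherin, lay between 11.36 and 11.56, and its other probe set between 9.46 and 9.81. Transgenic minus IL4R KO in Cdh5 was 0.03 by the brighter probe set and -0.24 by the dimmer, so its direction was not settled. Cdh11, a cadherin of mesenchymal cells, lay between 11.30 and 11.69 with all groups overlapping.

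Cdh2, N-cadherin of neural and muscle cells, read 8.19 and 8.10 in transgenic lungs, 7.97 and 8.08 in IL4R KO lungs and 7.87 and 7.99 in WT lungs. Transgenic was highest, IL4R KO and WT overlapped, and transgenic minus WT was 0.21 (limma adjusted p = 0.24). Cdh4, R-cadherin, lay between 7.13 and 7.36 and was highest in WT without overlap, with IL4R KO minus WT at -0.16 (limma adjusted p = 0.22). Cdh16, a cadherin of kidney epithelium, read 7.94 and 8.11 in transgenic lungs, 8.15 and 8.49 in IL4R KO lungs and 7.75 and 7.97 in WT lungs. IL4R KO was highest without overlap, and IL4R KO minus WT was 0.46 (limma adjusted p = 0.13). It passed without IL4R KO pool 1 (0.63, limma adjusted p = 0.037, in a range of 0.037 to 0.52 over 15 alternatives). The thyroid, which also expresses Cdh16, had 4 of 5 markers measured, with summed linear levels of 302 to 329 in transgenic, 347 to 389 in IL4R KO and 314 to 346 in WT lungs. Of these, 1 was below the lower quartile, and only Nkx2-1, the brightest with a mean of 7.67, was tested and did not pass. Tg, Pax8 and Tshr had means of 5.02 to 5.81 and were not tested because of the filter. The sums therefore rest mainly on Nkx2-1, which was highest in IL4R KO lungs (7.76 and 7.92). Tg was highest there too (5.48 and 5.88), and Pax8 overlapped between IL4R KO and transgenic lungs. Tshr was lowest in IL4R KO lungs (5.73 and 5.74). The part of thyroid tissue in the Cdh16 values was not tested.

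**Figure D3:**
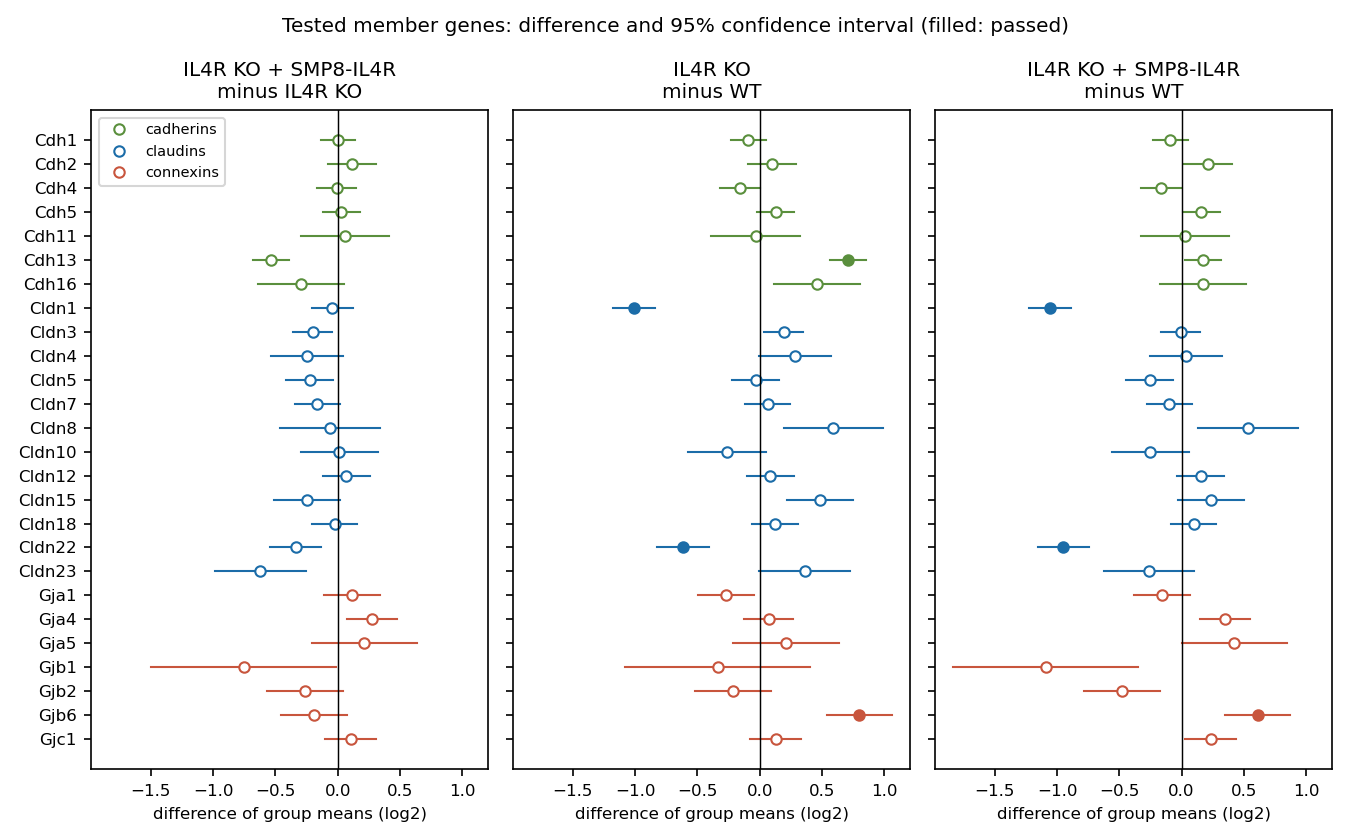
Differences of group means on the log2 scale (horizontal axis) with 95% confidence intervals for the 26 tested genes (rows), coloured by family, in 3 panels for transgenic minus IL4R KO, IL4R KO minus WT and transgenic minus WT. Filled points passed at an adjusted p under 0.05: 0 in the left panel, 4 in the middle and 3 in the right.

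The 26 genes that were not tested had means of 3.13 to 6.81, among them 14 cadherins, 8 claudins and 4 connexins. Cdh19, a cadherin known from Schwann cells and singled out after its values were seen, read 3.79 and 3.95 in transgenic lungs, 4.65 and 4.53 in IL4R KO lungs and 4.11 and 4.04 in WT lungs. The IL4R KO pools were highest, and all values lay under the lower quartile. In the fit without a filter, IL4R KO minus WT was 0.51 (limma adjusted p = 0.041) and transgenic minus IL4R KO -0.72 (limma adjusted p = 0.12). Cdh26, also singled out after its values were seen, read 5.69 and 5.94 in transgenic lungs, 6.15 and 6.47 in IL4R KO lungs and 6.22 and 6.44 in WT lungs, with transgenic minus WT at -0.52 (limma adjusted p = 0.18 without a filter). Only 2 of 4 listed Schwann cell markers had a probe set, with summed linear levels of 1442 to 1519 in transgenic, 1426 to 1721 in IL4R KO and 1407 to 1442 in WT lungs. The 2 did not share an order, and neither passed. Sox10 was highest in WT lungs (7.98 and 7.94, beside 7.77 and 7.83 in IL4R KO lungs). Mbp, the brighter, was lowest in WT lungs (10.17 and 10.22).

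Across all 52 genes, the median difference was -0.06 for transgenic minus IL4R KO, 0.00 for IL4R KO minus WT and -0.10 for transgenic minus WT. The corresponding medians of all 18193 genes were -0.02, 0.00 and 0.00. Groups did not overlap in 27 of 52 members for transgenic against IL4R KO, beside 41.0% of all genes, with 4 higher beside 17.9% and 23 (44.2%) lower beside 23.1%. They did not overlap in 30 of 52 for IL4R KO against WT, beside 48.9%, with 17 higher beside 24.3% and 13 lower beside 24.6%. For transgenic against WT they did not overlap in 33 of 52, beside 57.8%, with 11 higher beside 28.5% and 22 lower beside 29.3%. The comparisons share arrays, so these counts are not independent of each other. The members' median difference between pools of a group was 0.087 in transgenic, 0.148 in IL4R KO and 0.077 in WT lungs. By family, IL4R KO minus WT had medians of -0.03 over 21 cadherins, 0.05 over 20 claudins and 0.04 over 11 connexins.

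**Figure D4:**
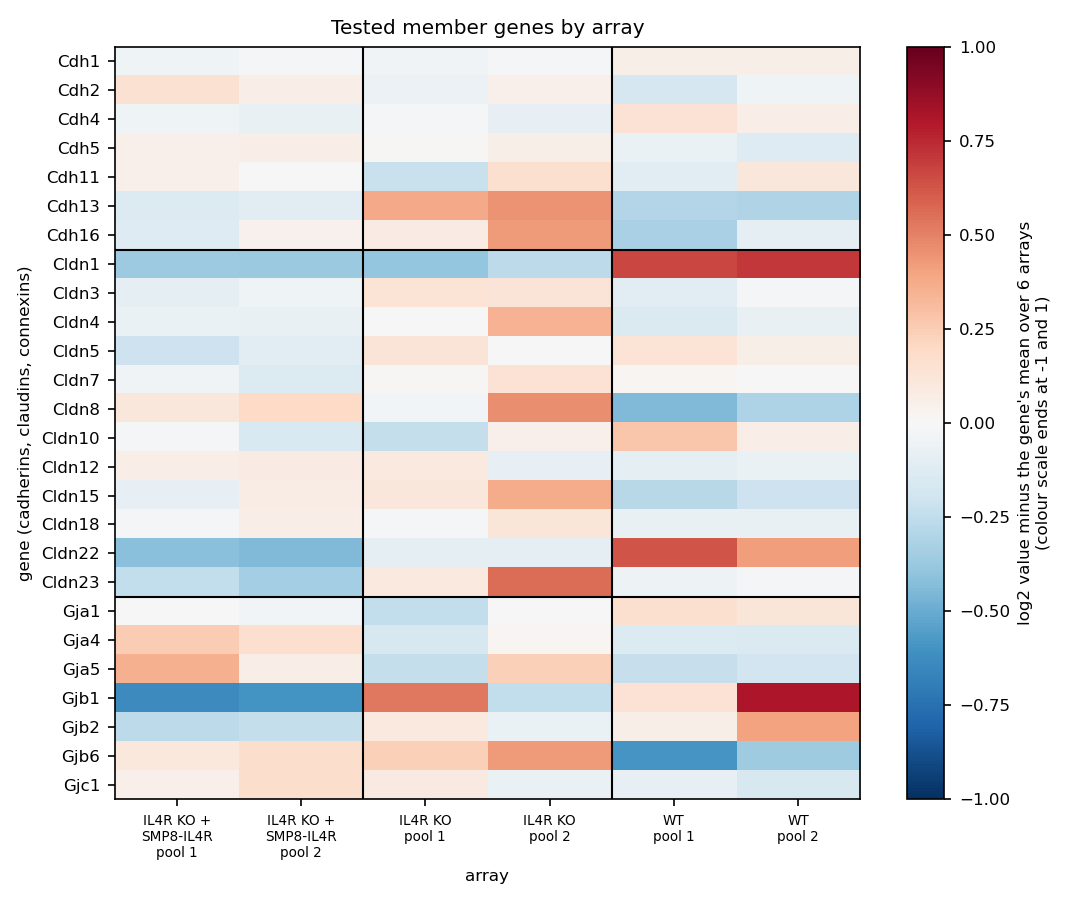
Each of the 26 tested genes (rows) in each of the 6 arrays (columns), coloured by the log2 value minus the gene's mean over the arrays, from blue (below its mean) to red (above its mean). Cldn1 and Cldn22 are red in both WT pools, Gjb6 is blue there, Cdh13 is red in both IL4R KO pools, and Gjb1 is reddest in WT pool 2 and IL4R KO pool 1.

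Neighbouring member genes did not always differ alike. The reference order of genes holds 11 pairs of members next to each other. Gjb2 and Gjb6 had IL4R KO minus WT differences of -0.22 and 0.80, and Cldn1 and Cldn16 of -1.01 and -0.01. Cdh7 and Cdh19 had -0.09 and 0.51. Cldn4 and Cldn3, in contrast, had 0.29 and 0.19.

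Most partners of these junction proteins passed in no comparison. Of the catenins and other cadherin partners, 10 of 11 were tested and none passed in the 3 comparisons. Of the cytoplasmic and membrane partners of the tight junction, all 15 with a probe set were tested, and 2 were higher in IL4R KO than in WT lungs. Pard6b, a polarity protein, read 10.26 and 10.35 in transgenic lungs, 10.61 and 10.54 in IL4R KO lungs and 10.03 and 10.00 in WT lungs, a difference of 0.56 between IL4R KO and WT (limma adjusted p = 0.011). Pard3, the scaffold that Pard6b binds, read 9.82 and 9.82 in transgenic lungs, 10.16 and 10.04 in IL4R KO lungs and 9.74 and 9.56 in WT lungs, a difference of 0.45 between IL4R KO and WT (limma adjusted p = 0.044, and 0.058 without the filter, where it did not pass). Both were highest in IL4R KO without overlap, and neither passed in the other comparisons.

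None of the 7 tested desmosome genes passed. Dsc2, a desmosomal cadherin that was not tested because of the filter, read 5.37 and 5.74 in transgenic lungs, 5.99 and 5.99 in IL4R KO lungs and 6.89 and 6.82 in WT lungs. WT was highest and transgenic lowest, without overlap, as for Cldn22. In the fit without a filter it was lower in IL4R KO than in WT lungs (-0.86, limma adjusted p = 0.025) and in transgenic than in WT lungs (-1.30, limma adjusted p = 0.0066). It was named after its values were seen. Among the other lists, 1 of 6 measured connexins and pannexins outside the rule, 11 of 12 non-classical cadherin relatives and 6 of 9 transcription factors of epithelial-mesenchymal transition were tested, and none passed.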

How the data were processed

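RNA was measured on 6 arrays, 2 pools for each of 3 genotypes, grouped and numbered from the labels. The authors deposited log2 values, which RMA produced per the submitters' processing notes, with the version not given in the sources used here. RMA normalizes arrays to a shared distribution and compresses dim signals, so small differences of dim genes are understated. The table has no detection calls, so a level was placed among all values. Of 45101 probe sets, 64 array controls were not used. By the platform annotation, 34945 had 1 gene, 932 several and 9160 none, and 34741 matched the GRCm38.p6 gene table by Entrez identifier.

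The probe set of highest mean stood for its gene. Genes exceeding the overall median in 2 or more arrays were tested with limma 3.58.1 (R 4.3.3), fitting a mean for each group to all 6 arrays together (3 residual and 2.86 prior degrees of freedom) and Benjamini-Hochberg adjustment over 11861 genes. A second fit covered all 45037 probe sets without a filter. The number of arrays limits the precision, and p-values measure the spread between pools. Sums of marker levels are sums of 2 to the power of the log2 value.

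The members and gene lists were chosen with earlier results of these data known. Genes named were those passing in any comparison, the 5 brightest of each family, the 4 of each family with the lowest p in a comparison, genes with a passing probe set, and passing partners. Pools with the same number were not treated as pairs, because their deviations from the group means correlated at 0.121 between transgenic and IL4R KO, -0.509 between IL4R KO and WT and -0.0875 between transgenic and WT. The test was tried on simulated data of 11861 genes with 200 changed. For IL4R KO minus WT it recovered 48% of changes of 0.5, 84.8% of 1 and 98.4% of 2, with 4.25% of calls false. For transgenic minus IL4R KO it recovered 52.4% of changes of 0.5 and 85.2% of 1, with 5.43% of calls false. For transgenic minus WT, 3.2% of calls were false. Whether these percentages hold for the measured arrays, whose spread between pools differed by group, was not tested. Alternatives covered the filter, the probe set, the variance model, the scaling, the groups fitted, the replicate number and each pool left out.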

Additional observations from a re-analysis of the deposited data

How the results depend on the processing

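Over 36 named differences and 522 alternatives, 483 kept their direction and side of the threshold, 16 lost a call, 21 gained one and 2 reversed. Most of the 36 did not pass, so most of the 483 are differences that stayed above the threshold. The 16 losses fell on few calls. For transgenic minus WT they were 7 of Gjb6 and 1 of Cldn22. For IL4R KO minus WT they were 4 of Cldn22, 2 of Gjb6 and 2 of Cdh13. For each comparison, leaving out either pool of the third group repeats the fit of only the 2 groups compared. The counts of alternatives therefore include that fit more than once. Cldn1 passed in all 14 alternatives that tested it for IL4R KO minus WT and in all 13 for transgenic minus WT. With the median of a gene's probe sets, transgenic minus IL4R KO reversed to -0.0053 for Cdh2 and -0.11 for Cdh5. For IL4R KO minus WT, members passing numbered 0 with the stricter filter, under which none of the 4 genes is tested, 8 without both arrays with liver transcripts, and 1 to 9 when each pool was left out. The high end came without IL4R KO pool 1 (9), and the low counts without WT pool 1 (1) and WT pool 2 (2). Leaving out WT pool 1 or WT pool 2 ended the calls of Cdh13 (limma adjusted p = 0.056 for both) and Gjb6 (0.13 and 0.056), and that of Cldn22 ended without WT pool 1 (0.12) or with either transgenic pool or the whole transgenic group left out (0.053). For transgenic minus WT, members passing numbered 0 with the stricter filter, 6 with only the compared groups in the fit, 5 without both arrays with liver transcripts, and 1 to 6 when each pool was left out. The low count came without transgenic pool 2, which ended the call of Cldn22 (limma adjusted p = 0.052), and 6 came with either IL4R KO pool left out. For transgenic minus IL4R KO, members passing numbered 0 to 1 when each pool was left out, the 1 being Cldn23 without IL4R KO pool 1 and Cdh13 without IL4R KO pool 2. A pool left alone in its group was assumed to vary like the others. Over all genes, the counts without a pool ran from 110 to 1519 for IL4R KO minus WT, 77 to 910 for transgenic minus WT and 0 to 177 for transgenic minus IL4R KO. The cause of these shifts was not tested. Counts over all genes are not given setting by setting, so the member counts have no matched background.

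With the replicate number as a replicate block, 6 members passed for IL4R KO minus WT, Cldn15 (limma adjusted p = 0.041) and Cdh16 (limma adjusted p = 0.043) being added, 3 for transgenic minus WT and 0 for transgenic minus IL4R KO. The numbers share no stated origin, and the share of all genes passing with this block is not given. A replicate block that crossed the numbers of IL4R KO and WT pools, chosen after seeing the data, gave 4 members and 549 genes passing.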
